A study of Mus musculus with 24 samples.

Results

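The genes described here are 8 claudins (Cldn1, Cldn2, Cldn3, Cldn4, Cldn6, Cldn7, Cldn12 and Cldn14), occludin (Ocln) and zonula occludens 1 (Tjp1), which together build and anchor tight junctions. They were chosen by symbol from a table of 56205 gene rows, and all 10 were among the 14109 genes with enough reads to test. RNA was taken from whole livers of 24 C57BL/6J mice. The control group comprised 12 animals kept on a control chow diet, and the MCD group 12 animals kept on a methionine-choline deficient diet, which causes steatosis, inflammation and fibrosis. The study's methods list this diet as a high-fat one, while its results speak of a choline-deficient high-fat diet (CDAHFD). The labels' wording is kept. The fat content of the control diet is not given in the sources used here, so fat and the deficiency cannot be told apart. Both diets ran for 20 weeks, each diet was given to males and females in equal numbers, and the sex, litter and cage of a given library were not given. No library carried a genetic alteration or a drug. The comparison asks how expression of the junction genes in liver differs between the diets.

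Tight junctions seal the space between neighbouring epithelial cells. In liver they close off the bile canaliculus between hepatocytes and line the bile ducts between cholangiocytes, so that bile stays apart from blood. Claudins are four-pass membrane proteins whose extracellular loops meet across the cell gap and set which ions and water may pass. Some tighten the barrier (Cldn1, Cldn3), whereas Cldn2 forms a pore for cations and water. Occludin is a second kind of four-pass protein in the same strands. Tjp1 encodes a cytoplasmic scaffold (ZO-1) that binds claudins through a PDZ domain and ties the strand to actin.

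The promoter sequence just upstream of the start site is shown for Cldn4 and Cldn7, which rose together, and for Cldn3, the most abundant of the claudins per length and a neighbour of Cldn4 on mouse chromosome 5. Each run holds the 250 bases before the start site, 5′ to 3′ on the gene's strand, from RefSeq on build GRCm38.p6. Capitals mark matches on either strand to the motifs listed below. The Cldn3 window is chr5:134985964-134986213 on the plus strand, the Cldn4 window chr5:134946935-134947184 on the minus strand and the Cldn7 window chr11:69964529-69964778 on the plus strand.
Cldn3: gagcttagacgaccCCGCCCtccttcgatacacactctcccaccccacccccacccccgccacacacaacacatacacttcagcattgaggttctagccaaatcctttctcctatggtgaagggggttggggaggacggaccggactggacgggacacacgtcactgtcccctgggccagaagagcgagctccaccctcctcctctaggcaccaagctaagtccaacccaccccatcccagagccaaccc
Cldn4: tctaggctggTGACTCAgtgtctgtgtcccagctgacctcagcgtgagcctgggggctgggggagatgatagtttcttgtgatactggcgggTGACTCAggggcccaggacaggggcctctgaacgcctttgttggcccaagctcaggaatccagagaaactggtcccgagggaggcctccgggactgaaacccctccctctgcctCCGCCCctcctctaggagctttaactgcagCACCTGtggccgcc
Cldn7: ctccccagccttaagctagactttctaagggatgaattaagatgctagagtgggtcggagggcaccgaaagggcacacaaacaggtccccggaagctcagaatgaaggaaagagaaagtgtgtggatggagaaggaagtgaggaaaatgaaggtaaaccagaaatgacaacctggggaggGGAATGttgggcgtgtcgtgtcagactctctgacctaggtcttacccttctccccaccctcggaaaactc

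The motifs reported, searched on both strands, were the GC box GGGCGG (held by 32.7% of 32851 mouse promoter windows of this length), the E-box CACCTG (17.2%), the AP-1 motif TGANTCA (6.75%), the TEAD motif GGAATG (12.6%), the Grainyhead-like motif AACCNGTT (1.79%), the HNF4 motif CAAAGTNCA (1.19%) and the TATA box TATAAA (12.4%). The Cldn4 window held AP-1 matches that start at -240 and -158, a GC box at -44 and an E-box at -14, counted from the base before the start site as -1. The Cldn7 window held 1 match, a TEAD motif at -70, and the Cldn3 window 1 match, a GC box at -236. Cldn6, the third gene that rose, had GC boxes at -140 and -8 and an E-box at -93. Its sequence is not printed because RefSeq and GENCODE place its start site 116 bases apart. The 3 genes that rose had no motif of this list in common. Cldn4 and Cldn6 shared the GC box and the E-box, and Cldn12 and Cldn14 had no match. GC content was 62.0% for Cldn4, 53.6% for Cldn6, 51.2% for Cldn7 and 60.8% for Cldn3, with a median of 52.4% over all windows. A match is a description of letters and not of binding.

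Libraries held 16793207 to 24915175 counts in control and 16388650 to 24577848 in MCD, so depth overlapped between diets. The TMM factors, which correct for the make-up of each library, did not overlap (0.6425 to 0.9729 in control and 1.07 to 1.259 in MCD). Levels below are in CPM, raw counts divided by the TMM-scaled library size. Under this scaling 50.2% of all genes past the threshold were higher in MCD. With total counts alone the share was 84.3%, and the median fold change over the whole table moved up by 0.37 on the log2 scale (with upper-quartile factors, 65.6% and 0.15). One liver stood apart, control replicate 12, with the lowest factor. It was the lowest control for Cldn1, Cldn2, Cldn12, Ocln and Tjp1 and the highest for Cldn3 and Cldn7. Hepatocyte markers were abundant in every library, with 10 genes summing to 78310 to 190500 CPM in control and 59030 to 87260 in MCD. The libraries were separate columns with no identical pair. Whether each came from its own animal is implied by the animal numbers and not stated per library.

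The claudins differed in direction between diets. Cldn4, Cldn6 and Cldn7 had few counts in control livers (medians of 3, 4 and 12.5) and rose in MCD, by 25.6-fold, 7.90-fold and 9.32-fold respectively. Cldn12 and Tjp1 fell, by 1.68-fold and 1.44-fold. Cldn1, Cldn2, Cldn3, Cldn14 and Ocln did not pass the threshold, which was a Benjamini-Hochberg FDR of at most 0.01 and an absolute log2 fold change above 0.5 in edgeR's quasi-likelihood test. Thus 3 of 10 genes were higher and 2 of 10 lower, where 19.2% of all tested genes were higher and 19.1% lower. The 10 genes had a median log2 fold change of 0.04, and the 14109 genes one of -0.10. For 3 of the 10, every MCD library lay above every control library, as for 9.50% of all tested genes. For 0 of the 10 did every MCD library lie below every control library (4.88% of all tested genes).

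**Figure D1:**
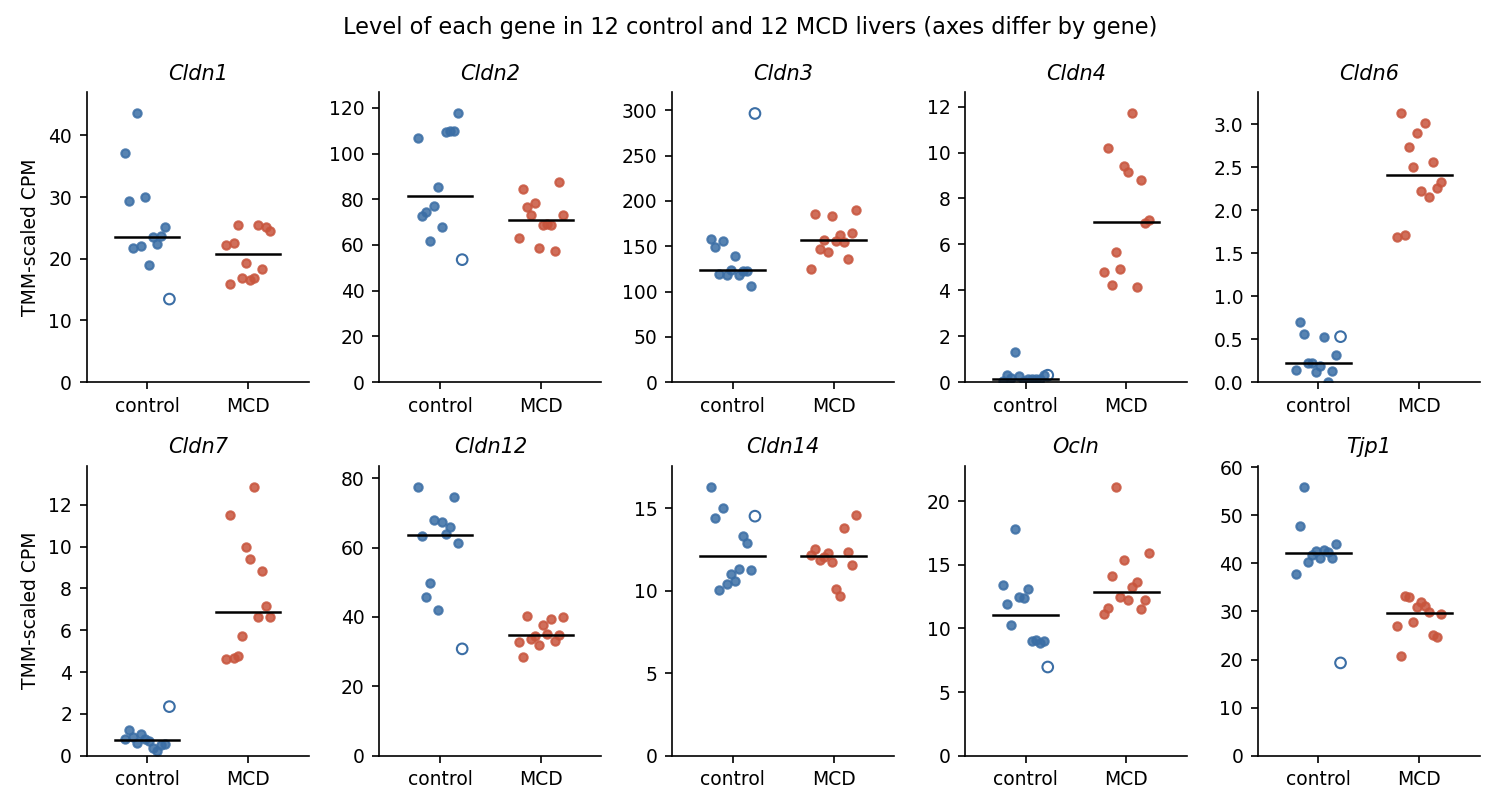
Level of each gene in TMM-scaled CPM (vertical axis, starting at 0 and differing between genes) in 12 control livers (blue) and 12 MCD livers (red), 1 point per liver. Bars are medians and the open circle is control replicate 12. The MCD points of Cldn4, Cldn6 and Cldn7 lie wholly above the control points, and for Cldn12 and Tjp1 the open circle is the only control point that is not above every MCD point.

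Cldn4 (ENSMUSG00000047501, GRCm38 chr5:134945119-134946934, minus strand) encodes a barrier claudin of ductal and intestinal epithelium. It had 1 to 23 raw counts per control liver with a median of 3, and 89 to 280 per MCD liver with a median of 163.5. In CPM the lowest, median and highest values were 0.0615, 0.154 and 1.30 in control and 4.16, 6.99 and 11.7 in MCD. All 12 MCD livers were above all control livers, and the highest control, replicate 4, was apart from the rest of its group. The log2 fold change was 4.68 (SE 0.34, 95% confidence interval 3.99 to 5.37, edgeR FDR 1.06e-11), and 5.26 without control replicate 4. Since 3 counts corresponded to 0.109 to 0.227 CPM, the size of this change rests on a control level that few reads define.

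Cldn7 (chr11:69964779-69967885, plus strand), a basolateral claudin of many epithelia, had more counts than the other 2 in control livers. Its level per kilobase of the longest transcript was the highest of the 3. That order in MCD livers depended on the length used. Counts were 4 to 31 in control and 93 to 317 in MCD. CPM was 0.236 at the lowest, 0.749 at the median and 2.35 at the highest in control, against 4.63, 6.90 and 12.9 in MCD. The diets did not overlap, and the highest control was replicate 12. The log2 fold change was 3.22 (SE 0.26, interval 2.68 to 3.76, edgeR FDR 1.05e-10), and 3.48 without that liver.

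Cldn6 (chr17:23679249-23682446, plus strand) encodes a claudin best known from embryonic epithelia. Its counts were 0 to 12 with a median of 4 in control and 34 to 86 with a median of 64 in MCD. CPM was 0, 0.225 and 0.699 (lowest, median and highest) in control and 1.69, 2.42 and 3.13 in MCD. Here too the diets did not overlap. The difference was 2.98 on the log2 scale (SE 0.28, interval 2.41 to 3.55, edgeR FDR 9.51e-10). Cldn4, Cldn6 and Cldn7 reached 10 counts in only 1, 2 and 9 control livers but in all 12 MCD livers. All 3 thus passed the filter on low counts through the group where they were high.

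Cldn12 (chr5:5489537-5514958, minus strand), a claudin that lacks the usual PDZ-binding end, was the member with the clearest fall. Control livers ranged from 30.8 CPM through a median of 63.6 to 77.5, and MCD livers from 28.6 through 34.7 to 40.2. Every MCD liver was below the control median, and control replicate 12 (30.8 CPM) was the only control inside the MCD range, since the other 11 controls began at 42.1 CPM. The fitted log2 fold change was -0.75 (SE 0.11, interval -0.98 to -0.52, edgeR FDR 2.16e-06). With total counts alone it was -0.40 and did not pass the fold limit. Relative to the median of all tested genes the value was -0.65 under TMM factors and -0.67 under total counts. A change of scaling shifts all genes by nearly the same amount. This likeness therefore follows from subtracting the median and is no test of the fall.

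Tjp1 (chr7:65296165-65527781, minus strand) had a smaller difference. Control livers had 19.3, 42.1 and 55.9 CPM (lowest, median and highest) and MCD livers 20.7, 29.7 and 33.3. All 12 MCD livers were below the control median and below the 11 controls other than replicate 12, of which the lowest had 37.7 CPM. Replicate 12 itself was below every MCD liver. This gave a log2 fold change of -0.53 (SE 0.11, interval -0.75 to -0.30, edgeR FDR 0.000148), close to the fold limit of 0.5. The call was lost with relative log expression factors (-0.47), in DESeq2 (-0.47) and in 9 of 24 fits that left out 1 library (-0.44 to -0.50). Relative to the median of all tested genes the value was -0.43 under TMM factors and -0.46 under total counts. As for Cldn12, that likeness follows from subtracting the median.

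**Figure D2:**
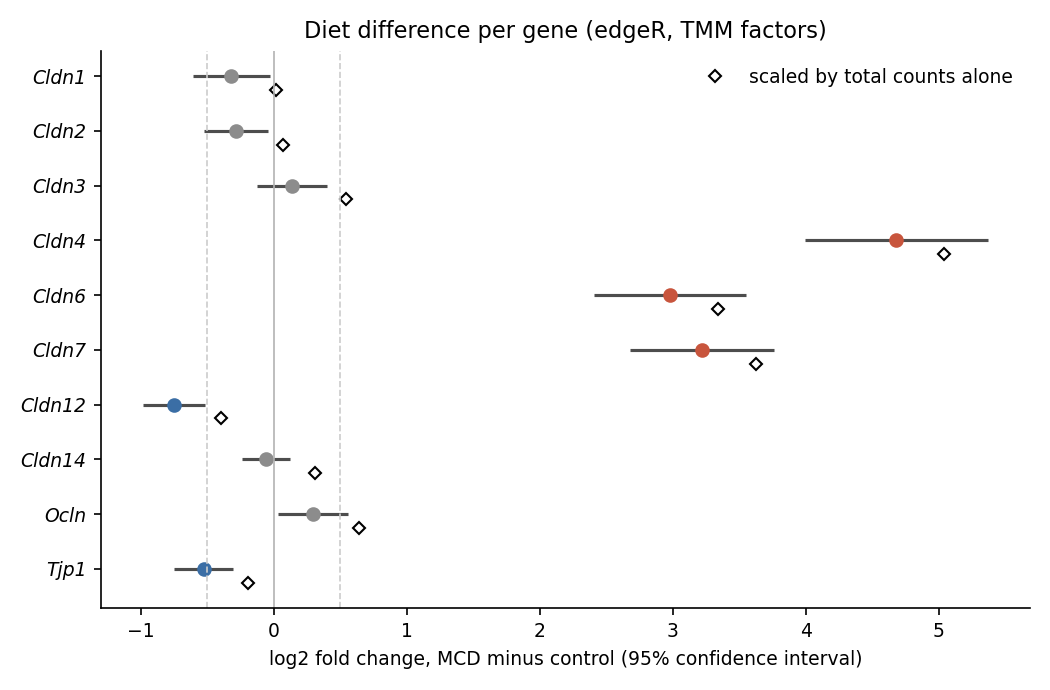
Log2 fold change of MCD minus control for each gene (horizontal axis) with its 95% confidence interval under TMM factors. Red and blue points passed the threshold as higher and lower, grey points did not, diamonds give the value with total counts alone, and dashed lines mark the fold limit of 0.5 in each direction. The diamonds lie to the right of all 10 points, and Cldn1, Cldn2 and Cldn14 cross 0 between the scalings.

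Cldn3 (chr5:134986214-134987472, plus strand) had the highest level of the 10 genes. CPM was 105.7, 123.4 and 296.5 (lowest, median and highest) in control and 124.4, 156.7 and 189.7 in MCD. All 12 MCD livers were above the control median, but control replicate 12 was above them all. The log2 fold change was 0.14 (SE 0.13, interval -0.13 to 0.40, edgeR FDR 0.354). Without that liver it was 0.32 (FDR 0.000986), still under the fold limit, and 5 of 12 MCD livers were then above every control. Exons of an antisense gene, Wbscr25, overlap those of Cldn3 over 40 bases, and whether counting used strand is not stated.

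Cldn2 (chrX:139800828-139811386, plus strand), the pore-forming claudin, had 53.6, 81.2 and 117.5 CPM in control and 57.4, 71.1 and 87.4 in MCD. The MCD range lay inside the control range, and 5 control livers were above every MCD liver. Its log2 fold change was -0.28 (SE 0.12, interval -0.53 to -0.04, edgeR FDR 0.0375). Cldn1 (chr16:26356642-26371841, minus strand), the claudin whose loss in people causes a neonatal cholangitis, had 13.5, 23.6 and 43.6 CPM in control and 15.9, 20.7 and 25.5 in MCD, again with the MCD range inside the control range. Its log2 fold change was -0.32 (SE 0.14, interval -0.61 to -0.03, edgeR FDR 0.0504). Control livers varied more than MCD livers for both genes, with coefficients of variation of 31.3% against 18.5% for Cldn1 and 25.5% against 13.0% for Cldn2.

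Cldn14 (chr16:93919031-94008837, minus strand), known for its role in hearing and in renal calcium handling, showed the narrowest difference. Its CPM was 10.03, 12.1 and 16.3 in control and 9.70, 12.1 and 14.6 in MCD, so the diets overlapped almost wholly, with a log2 fold change of -0.06 (SE 0.09, interval -0.24 to 0.12, edgeR FDR 0.56). The sign turned with relative log expression factors (0.0004) and with upper-quartile factors (0.09). Ocln (chr13:100496507-100552718, minus strand) had 6.96, 11.1 and 17.8 CPM in control and 11.1, 12.9 and 21.1 in MCD. All 12 MCD livers were above the control median within overlapping ranges, and the log2 fold change was 0.29 (SE 0.13, interval 0.03 to 0.55, edgeR FDR 0.0479).

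Because the libraries differ in TMM factor by diet, ratios of genes within a library were also taken, which need no scaling between libraries. The log2 ratio of Ocln to Tjp1 counts had a median of -1.89 in control (-2.44 to -1.18) and -1.13 in MCD (-1.39 to -0.64), and 8 of 12 MCD livers were above every control. The log2 ratio of Cldn3 to Cldn2 rose from a median of 0.59 to 1.15 with overlapping ranges. For Cldn4, Cldn6 and Cldn7 the ratio to Tjp1 was higher in every MCD liver than in every control liver. For Cldn1, Cldn2, Cldn3, Cldn12 and Cldn14 it overlapped between the diets. Tjp1 was itself lower in MCD under TMM factors, and a lower Tjp1 raises every ratio to it.

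Levels can be compared between genes only per length of transcript, given here as mean CPM per kilobase of the longest transcript with the SD over 12 livers. In control livers the order began with Cldn3 (114.5 ± 40.3), Cldn2 (28.6 ± 7.31), Cldn12 (15.8 ± 3.75), Cldn14 (8.65 ± 1.44), Cldn1 (6.25 ± 1.96), Tjp1 (5.87 ± 1.18) and Ocln (2.76 ± 0.722). It ended with Cldn7 (0.631 ± 0.412), Cldn6 (0.188 ± 0.135) and Cldn4 (0.151 ± 0.185). Cldn3 was separate from its neighbour in every liver, Cldn1 and Tjp1 could not be ordered (Cldn1 higher in 5 of 12 livers), and Cldn6 was above Cldn4 in 9 of 12.

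In MCD livers the upper places were unchanged, with Cldn3 at 126.1 ± 15.9, Cldn2 at 23.5 ± 3.07, Cldn12 at 9.37 ± 0.958 and Cldn14 at 8.28 ± 0.924. Cldn7 (5.80 ± 2.07) now stood beside Cldn1 (5.01 ± 0.925), and Cldn4 (3.99 ± 1.41) between Tjp1 (4.08 ± 0.539) and Ocln (3.38 ± 0.685). Cldn7 was above Cldn1, Tjp1 above Cldn4 and Cldn4 above Ocln in 6 of 12 livers each, so these neighbours could not be ordered. Cldn14 was above Cldn7 in 9 of 12. Cldn6 was last (1.50 ± 0.288) and separate from Ocln.

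The same values give the make-up of the claudin mRNA pool, the share of each of the 8 claudins in their summed counts per kilobase within a library. Cldn4, Cldn6 and Cldn7 together made up a median of 0.482% of the pool in control livers (0.146% to 0.847%) and 5.25% in MCD livers (3.98% to 9.44%), with no overlap. The share of Cldn12 went from a median of 10.4% to 5.22%, and that of Cldn2 from 17.1% to 12.8%. Cldn3 held 63.2% in control (54.7% to 85.1%) and 68.1% in MCD (66.3% to 72.7%), where 85.1% was control replicate 12 and the other controls reached 69.0%. Cldn2 and Cldn3 together held 80.4% and 82.1%, with overlapping ranges.

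**Figure D3:**
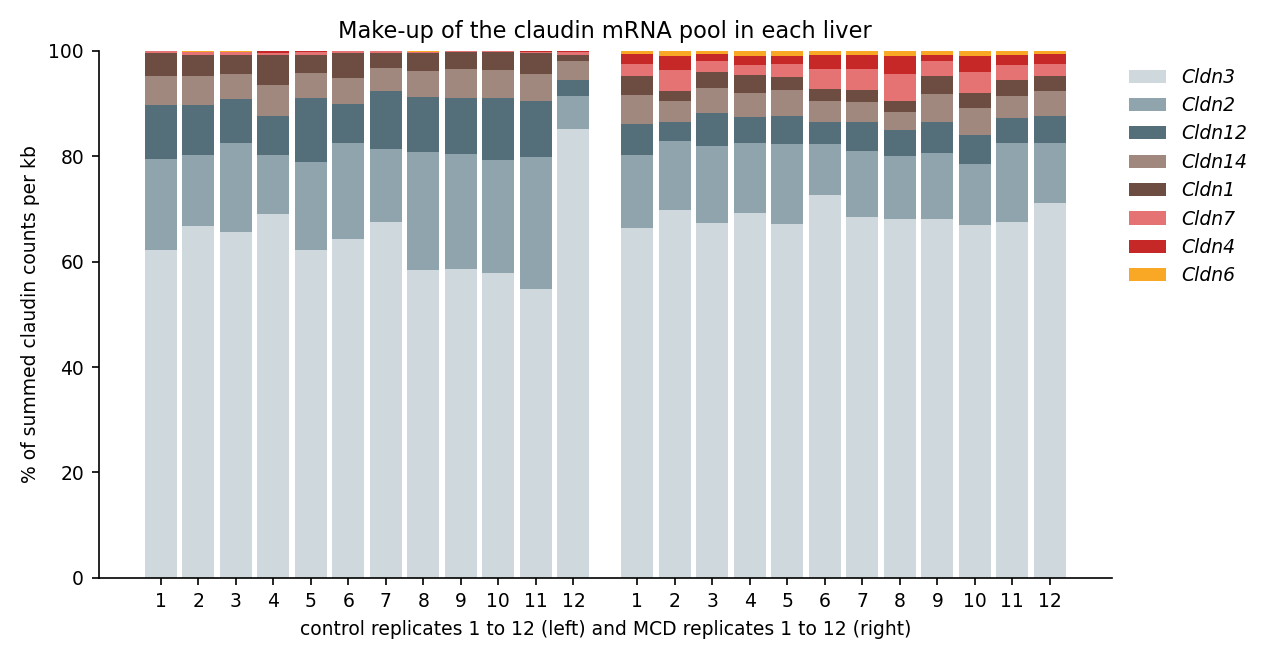
Share of each claudin in the summed claudin counts per kilobase (vertical axis, percent), 1 bar per liver, with control replicates on the left and MCD replicates on the right. The red and yellow segments (Cldn7, Cldn4 and Cldn6) reach at most 0.847% in control livers and 3.98% to 9.44% in MCD livers.

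Bulk RNA cannot tell apart more or fewer cells of a type from more or less RNA per cell, so markers of the liver's cell types were read beside these genes. Of 12 cholangiocyte markers 10 were higher in MCD and 0 lower, with a median log2 fold change of 2.92. Over all tested genes 19.2% were higher and 19.1% lower, with a median of -0.10. The summed level of the 12 markers was 99.4 to 229.1 CPM in control and 560.9 to 1069 in MCD. Without Spp1, which other cells make too, the sums were 73.1 to 130.2 and 149.4 to 260.9. The defining markers moved with them, with Epcam, an epithelial adhesion protein of bile duct and progenitor cells, at 0.716 to 3.86 CPM in control and 17.4 to 44.2 in MCD (log2 fold change 3.67, SE 0.22, edgeR FDR 1.14e-12). Krt7 (3.48) and Krt19 (2.99), keratins of the bile duct, rose by similar amounts. Slc4a2 (-0.41) was among those that did not pass, and 0 of the 12 were at 0 in all libraries.

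Set against Epcam within the same library, Cldn6 and Cldn7 stayed within the range of control livers, Cldn4 did so only through 1 control liver, and Cldn3 did not. There were 36.1 Cldn7 counts per 100 Epcam counts at the control median (17.7 to 81.3) and 27.3 at the MCD median (21.7 to 31.1). For Cldn6 the medians were 11.8 (0 to 26.5) and 8.37 (6.62 to 12.5). For Cldn4 they were 8.92 (4.0 to 41.1) and 25.4 (19.5 to 28.3). All 12 MCD livers were inside the control range for each of the 3, a range that few control counts define. For Cldn4 the upper end was control replicate 4 alone, and without it the controls reached 18.2 and all 12 MCD livers were above them. Without their own highest control liver, all 12 MCD livers remained inside the range for Cldn6 and for Cldn7. Against Krt19, 6 of 12 MCD livers had a Cldn4 ratio above every control, and against the summed cholangiocyte list 7 of 12 did. For Cldn6 and Cldn7 the log2 ratio to that summed list had medians of -9.26 and -7.48 in control and -8.38 and -6.72 in MCD, with overlapping ranges and 1 of 12 MCD livers above every control for each. The summed CPM of Cldn4, Cldn6 and Cldn7 had a median 14.8 times higher in MCD than in control, that of Epcam 11.4 times, that of Krt19 10.01 times, that of the whole list 5.14 times and that of the list without Spp1 2.01 times. Cldn3 went from 6306 (3748 to 17170) to 602 (368 to 842) with no overlap. Within MCD livers the 3 claudins moved together, with Pearson r of 0.909 for Cldn4 and Cldn7, 0.732 for Cldn4 and Cldn6 and 0.717 for Cldn6 and Cldn7 over 12 libraries of one scaling. In control livers, where counts were few, r was 0.203, 0.294 and 0.563. The part of cell composition in the rise was not tested.

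**Figure D4:**
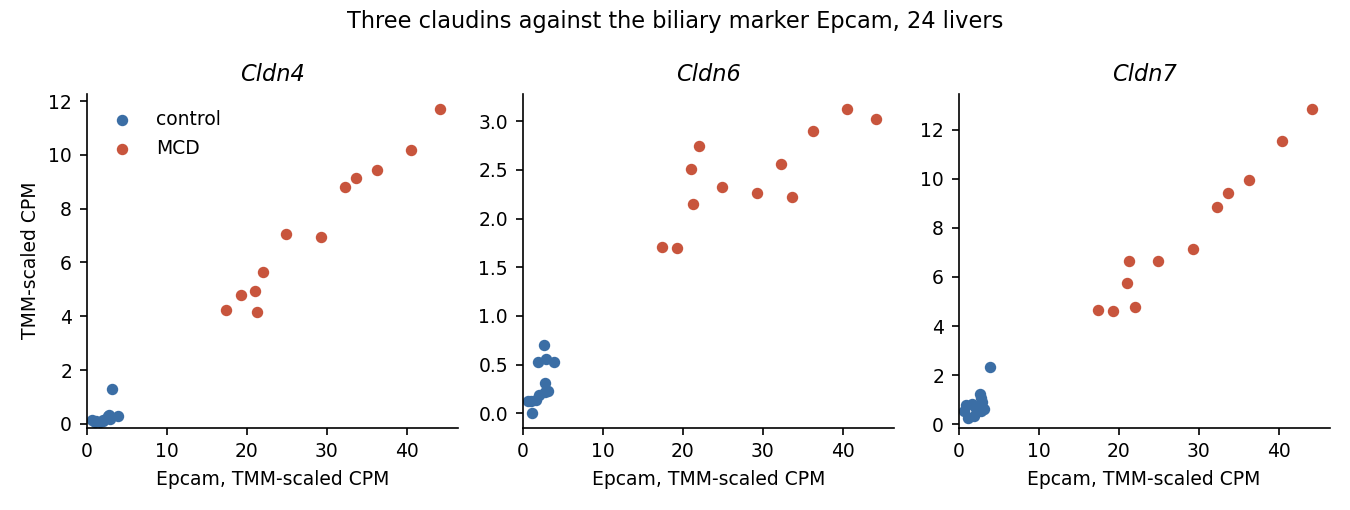
Level of Cldn4, Cldn6 and Cldn7 (vertical axes, TMM-scaled CPM) against Epcam (horizontal axis, TMM-scaled CPM) in 24 livers, 1 point per liver, control in blue and MCD in red. Control livers sit in the lower left corner at 0.716 to 3.86 CPM of Epcam, and MCD livers at 17.4 to 44.2, with every MCD point above every control point in each panel.

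Markers of other cell types differed as well, beside 19.2% higher and 19.1% lower over all tested genes. Of 10 hepatocyte markers 4 were lower and 0 higher (median log2 fold change -0.49), and of 9 endothelial markers 7 were lower and 0 higher (213.5 to 317.3 CPM summed in control and 126.7 to 196.6 in MCD). Of 9 mesenchymal markers 6 rose and 1 fell, of 9 macrophage markers 5 rose and 3 fell, of 7 tested lymphocyte markers 5 rose, and all 5 proliferation markers rose. Pancreatic acinar markers, a check on tissue taken with the liver, summed to at most 1.32 CPM, and the 1 tested, Cela2a, did not pass (log2 fold change 0.79, edgeR FDR 0.0175). Tjp1 and Cldn12 fell while the hepatocyte and endothelial sums fell, and the part of either in those falls was not tested.

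Most of the remaining mouse claudins were at or near 0 in these livers. Of 25 listed, 3 were tested and 9 had 0 counts in all 24 livers. Cldn8, a barrier claudin of the distal nephron and colon, rose with 1 to 13 counts in control livers and 35 to 81 in MCD livers, which did not overlap (log2 fold change 2.84, SE 0.27, edgeR FDR 1.03e-09). Like Cldn4, Cldn6 and Cldn7, it passed the filter on low counts through the MCD group. Cldn5, the endothelial claudin (-0.18), and Cldnd1 (-0.30) did not pass. Cldn23, named after its values were seen, had 0 to 7 counts in control and 4 to 15 in MCD and was too low to test. The count of other claudins past the threshold was 4 higher and 2 lower with no low-count filter, beside 3709 higher and 2650 lower of 27553 genes. The calls this adds are of genes too low for the main filter.

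Of 12 other tight junction membrane proteins tested, 4 rose and 1 fell, beside 19.2% higher and 19.1% lower over the whole table. Their median log2 fold change was 0.21, against -0.10 over the whole table. Ildr1, an angulin of junctions where 3 cells meet, had 2 to 16 counts in control livers and 27 to 111 in MCD livers, and rose most (2.97, SE 0.28, edgeR FDR 1.54e-09). Marveld3, a relative of occludin, rose by 1.75 (SE 0.20) and the junctional adhesion molecule Jam3 by 1.01 (SE 0.18) on the log2 scale. Ildr1 and Marveld3 (4 to 22 counts in control livers) passed the filter on low counts through the MCD group. F11r, which encodes JAM-A, was the other that rose (0.68), with every MCD liver above every control. Ildr2 fell by 0.67 on the log2 scale (SE 0.20, edgeR FDR 0.0055), a call that was lost with relative log expression factors (-0.62, FDR 0.0115) and in 14 of 24 fits that left out 1 library. Lsr (0.31), another angulin, and Marveld2 (0.42), which encodes tricellulin, did not pass. Exons of antisense genes overlap those of Jam3 over 1159 bases, of Ildr2 over 911 and of Lsr over 946 and 25. Of the other genes named with values, Arhgef2, Tjp3, Ctnna1, Ctnnb1, Krt7, Slc4a2 and Cela2a also share exonic bases with a gene on the opposite strand, and Ctnnb1, Spp1 and Cela2a with a gene on the same strand.

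Of 27 scaffold and polarity proteins tested from the cytoplasmic side, 5 fell and 2 rose, beside 19.1% lower and 19.2% higher over all tested genes, and their median of -0.09 was close to that of all genes. The fall of Pals1, the smallest (-0.51), was lost in 16 of 24 fits that left out 1 library. The falls were led by Mpdz (-1.02, SE 0.15, edgeR FDR 1.57e-06), a multi-PDZ partner of claudins, by the atypical protein kinase C Prkcz (-0.92, SE 0.11) and by the polarity protein Pard3 (-0.74, SE 0.08), for which every MCD liver was below every control. Tjp3, a paralogue of Tjp1, fell by 0.73 on the log2 scale. Arhgef2, a junction-bound activator of RhoA, rose by 1.65 (SE 0.21, edgeR FDR 1.79e-07) and Pard6g by 0.74 (SE 0.21). With total counts alone the split was 7 higher and 2 lower, where 4539 of 14109 tested genes were higher and 848 lower.

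In the adherens junction list 2 of 10 genes rose and 3 fell, in the desmosome list 2 of 8 rose and 2 fell, and in the gap junction list 2 of 6 rose and 1 fell. These counts stand beside 19.2% higher and 19.1% lower over the whole table. Nectin4 (2.17, SE 0.20) and Cdh1 (1.62, SE 0.18, edgeR FDR 2.33e-08) rose, while Cdh2 (-0.85, SE 0.09, FDR 6.35e-09), Nectin1 (-0.69) and Nectin3 (-0.62) fell. Cdh1 encodes E-cadherin and Cdh2 N-cadherin, the pair of cadherins that hepatocytes express. The catenins Ctnna1 (-0.12) and Ctnnb1 (0.04) did not pass. Among desmosome genes Pkp3 (1.09) and Ppl (0.99) rose, and Perp (-0.66) and Pkp4 (-0.57) fell. Among gap junction genes the connexins Gja1 (0.97) and Gja4 (0.55) rose and Gjb2 (-0.83, FDR 1.13e-09) fell, while Gjb1, the main hepatocyte connexin, was at -0.41 and did not pass the fold limit. The rise of Gja4 did not pass without MCD replicate 10 (0.49), nor with replicate number as a block (0.53, edgeR FDR 0.0179).

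**Figure D5:**
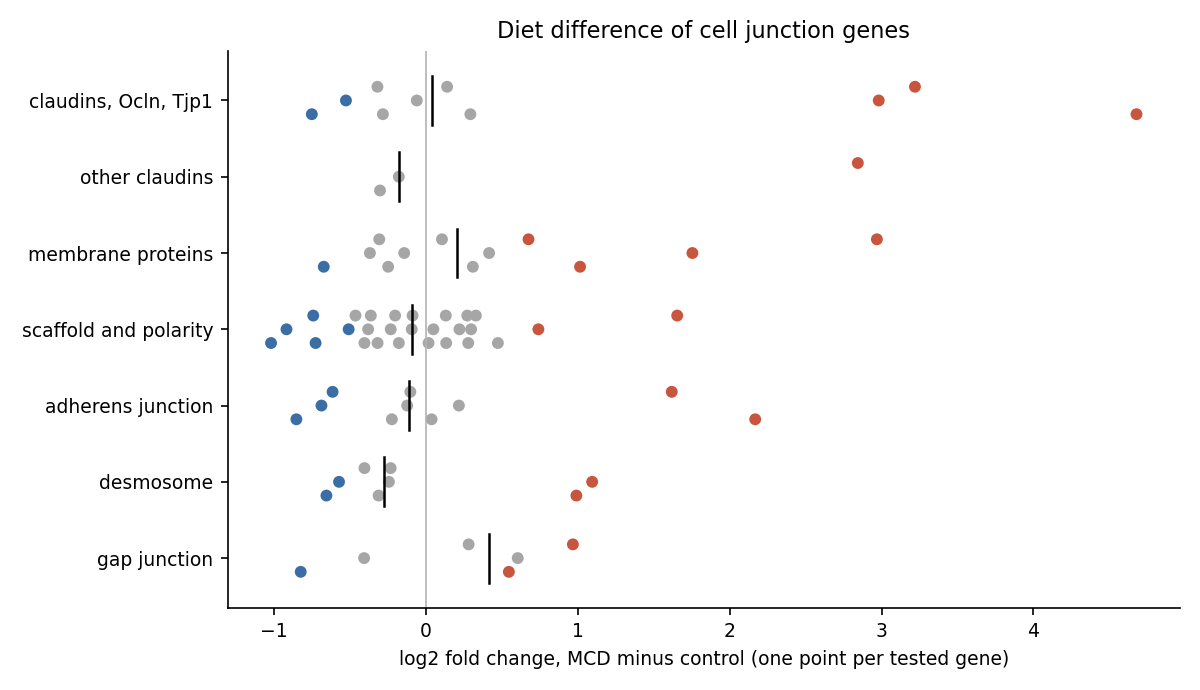
Log2 fold change of MCD minus control (horizontal axis) for each tested gene of 7 junction lists, 1 point per gene. Red points rose, blue points fell, grey points did not pass the threshold, and black bars are list medians, which run from -0.28 for desmosomes to 0.41 for gap junctions.

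The genes whose level followed each member most closely over the 24 livers, after removing the mean of each diet, were taken from 13104 tested genes with at least 1 CPM. These correlations share library scaling and are descriptions. Cldn12 was followed most closely by Pkn2 (r = 0.943), Stag2 and Crbn, and Tjp1 by Atrx (r = 0.940, and 0.825 without control replicate 12), Rictor and Dlg1. Cldn2 was followed by Exoc4 (0.898), Mtmr9 and Stk38l, and Cldn3 by Sertad1 (0.908, and 0.755 without control replicate 12), Map3k10 and Ppp4c. For the 3 genes that rose, the closest were Krt23 (0.864), Numbl and Rasal1 for Cldn4, March9 (0.827), Dpysl4 and Thsd4 for Cldn6, and Tmem51 (0.851), Wnk2 and Dguok for Cldn7. For the others they were Jak1 (0.777), Wipi1 and Tbc1d30 for Cldn1, Foxa3 (0.797), Slc25a33 and Gm8893 for Cldn14, and Tent5c (0.807) and Ptprk for Ocln.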

How the data were processed

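Poly(A) RNA of 24 mouse livers was sequenced, and the authors deposited whole-number counts for each Ensembl identifier, not normalized. The submitters' processing notes name bcl2fastq, STAR 2.7.3a and mm10. The study's methods name a TruSeq stranded mRNA kit without a species and, for reads aligned to the human reference, the exon quantification pipeline, Ensembl and PISCES. Which counting program, annotation release and strand setting made the mouse counts is not given in the sources used here. Symbols, positions, exon overlaps and transcript lengths came from GENCODE mouse release M21 (GRCm38), which named 51745 of 56205 identifiers. All 24 columns were used.

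Libraries were grouped by the diet in their labels. edgeR 4.0.16 (R 4.3.3; filterByExpr by diet, TMM factors, glmQLFit, glmQLFTest) fitted all 24 libraries with diet as the only term, and p-values were adjusted by Benjamini-Hochberg over 14109 genes. The limits (FDR 0.01, absolute log2 fold change 0.5) are those the study used for human liver. SEs were derived from the fold change and the F statistic. P-values measure the spread between these samples. The biological coefficient of variation was 26.8%. CPM used TMM-scaled library sizes, with a prior count of 2 on the log2 scale. The self-test on simulated data called 85 of 100 genes changed by 1 and 95 of 100 changed by 2 on the log2 scale. These were few among 14029 genes and changed equally in both directions. The self-test thus cannot speak to scaling where many genes differ.

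Named genes were the 10 members, the 3 called genes with the largest rise and the 3 with the largest fall in each junction list, and the 3 genes most correlated with each member, of which some are not reported here. F11r, Tjp3, Pals1, Cldn23 and genes that did not pass were named after their values were seen. Members, lists and tests were chosen with earlier results of these data known. Alternatives were other scalings and filters, DESeq2 1.42.0, limma-voom (limma 3.58.1), a replicate block, a sex-linked score, other limits and leaving out each library. Promoters were RefSeq windows (GRCm38.p6), found for 10 of 10 genes. For Tjp1 the RefSeq start site lies 156537 bases from the GENCODE gene start.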

Additional observations from a re-analysis of the deposited data

How the results depend on the processing

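Cldn4, Cldn6 and Cldn7 kept their direction and call in every fit that tested them, with log2 fold changes of 4.58 to 5.26, 2.86 to 3.16 and 3.13 to 3.48 when 1 library was left out. With at least 10 counts required in every library all 3 dropped out of the test, leaving 0 genes higher and 1 lower. Total counts alone gave 5 higher and 0 lower, beside 4539 higher and 848 lower of 14109 genes. Cldn1 was then at 0.017, Cldn2 at 0.070, Cldn3 at 0.55, Cldn12 at -0.40, Cldn14 at 0.31, Ocln at 0.64 and Tjp1 at -0.19. Tjp1 was at -0.47 with relative log expression factors, -0.38 with upper-quartile factors, -0.49 with no low-count filter, -0.45 with at least 10 counts in every library and -0.47 in DESeq2, so that 1 member was lower in each. Leaving out 1 library gave 1 to 2 members lower and -0.56 to -0.44 for Tjp1, whose call was lost without control replicate 3 or MCD replicate 2, 5, 6, 7, 8, 10, 11 or 12. Cldn14 was at 0.00040 with relative log expression factors, 0.090 with upper-quartile ones, 0.023 with at least 10 counts in every library and 0.0029 in DESeq2, and at -0.087 to 0.015 when 1 library was left out (0.015 without control replicate 1, 0.0055 without MCD replicate 7, 0.0094 without MCD replicate 8). With FDR 0.05 and no fold limit Cldn2 (-0.28) and Ocln (0.29) passed. With a log2 limit of 1, Cldn12 (-0.75) and Tjp1 (-0.53) did not, leaving 0 lower. The causes of these changes were not tested, apart from the filters, which test fewer or more genes.

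Among the lists, other claudins had 4 higher and 2 lower with no filter, beside 3709 higher and 2650 lower of 27553 genes. They had 0 higher with at least 10 counts in every library, and 1 lower at FDR 0.05. Membrane proteins had 2 higher with at least 10 counts in every library and 4 lower at FDR 0.05. Ildr2, their 1 fall, was lost (0 lower) with relative log expression, upper-quartile and total-count scaling, with no filter, with at least 10 counts in every library, in limma-voom, at a log2 limit of 1, and without control replicate 2, 3, 6 or 7 or MCD replicate 2, 3, 4, 5, 6, 7, 9, 10, 11 or 12 (0 to 1 lower). Scaffold genes had 7 higher and 2 lower with total counts, 6 and 10 at FDR 0.05, 1 and 1 at a log2 limit of 1, and 2 to 4 higher with 1 library left out (4 without control replicate 12, adding Rab13 and Micall2). The fall of Pals1 was lost with relative log expression factors (-0.44), with upper-quartile factors (-0.36), in DESeq2 (-0.45), in limma-voom (-0.49), with 10 counts required in every library (-0.43), with no filter (-0.47) and with total counts (-0.16). Adherens genes had 1 higher with at least 10 counts in every library, 1 lower with total counts and 0 lower at a log2 limit of 1. Desmosome genes had 1 higher at that limit, and 1, 0, 1, 5 and 0 lower with upper-quartile factors, total counts, at least 10 counts in every library, FDR 0.05 and that limit. Gap junction genes had 0 higher and 0 lower at that limit, 0 lower with total counts, 2 lower at FDR 0.05, and 1 to 2 higher with 1 library left out (1 without MCD replicate 10).

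Same-numbered control and MCD libraries had r above 0.1 in 8 of 12 pairs (-0.28 to 0.349, median 0.233, against -0.0592 for other pairs), and 2 libraries correlated best with their own number, so the rule that every pair exceed 0.1 was not met and the numbers were not taken to pair animals. With the replicate block 3 members were higher and 2 lower, gap junction genes had 1 higher because Gja4 did not pass, and scaffold genes had 4 lower because Pals1 (-0.49) did not. With the union of exons in place of the longest transcript, an alternative chosen after seeing the data, the pool medians were 71.4% for Cldn3 and 84.7% for Cldn2 with Cldn3 in MCD, and 3.60% and 3.33% for Cldn14 in control and MCD. In MCD, Cldn4 and Cldn7 then had medians of 1.993% and 1.989%, where the longest transcript gave 1.906% and 2.769%. Depth limits Cldn4 and Cldn6 in control livers, where 3 counts are 0.109 to 0.227 CPM.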
